A study of Mus musculus with 36 samples.

Results

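The EGF family ligands and the ErbB receptors were followed in whole kidney RNA of 2 mouse models of polycystic kidney disease. The members were fixed by name as 6 ligands (Egf, Tgfa, Hbegf, Areg, Ereg and Btc) and 4 receptors (Egfr, Erbb2, Erbb3 and Erbb4). All 10 were found among the 20458 gene symbols of the count table, in 11 of its 29996 transcript rows. Egfr has 2 rows, and the one with the higher mean count (NM_207655) was used.

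Pkd1f/f:HoxB7-Cre mice (KO) were compared with Pkd1f/f mice (WT) in the Pkd1 model, and Pkd2f/f:HoxB7-Cre mice (KO) with Pkd2f/f mice (WT) in the Pkd2 model. All mice were C57BL/6, the WT mice carried the floxed alleles without Cre, and each of the 12 groups held 3 libraries, taken at postnatal day 1, 3 or 7 (P1, P3 and P7). HoxB7-Cre acts in the collecting duct, whereas RNA came from the whole kidney, so cells without recombination were measured together with those that lost the gene. In such bulk samples fewer cells of a type and less RNA per cell cannot be told apart.

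Growth factors of the EGF family are made as membrane proteins and released by proteases such as ADAM17. They bind EGFR or ErbB4, and these pair with each other or with ErbB2, which has no known ligand, or ErbB3, whose own kinase is weak. The paired receptors signal through the RAS, RAF and ERK kinases and through PI3 kinase and AKT. In the kidney, EGF is a product of the thick ascending limb and the distal convoluted tubule, and signals through EGFR have long been studied in cystic kidneys.

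Library totals were between 7179152 and 15850818 counts. Levels are given as CPM (counts scaled to a common library size with TMM factors), and a row was tested where 3 or more of a model's 18 libraries had 10 or more counts. Of the 10 members, 8 passed for Pkd1 and 9 for Pkd2. Ereg passed in neither model. Areg passed in the Pkd2 model through KO libraries alone, so it had to differ between the genotypes there, and no fold change or p-value of it is given. It stays among the 9 members tested in that model, and is named where a count of members found to differ holds it. KO was set against WT by the quasi-likelihood test of edgeR, and a gene was called at an adjusted p under 0.05 over all rows tested. Nothing in the labels says which mice were littermates, so p-values measure the spread between these libraries.

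Several properties of the libraries differed between groups. Y-linked counts were present in 18 libraries and near 0 in the other 18. They were found in 3 of 3 KO and 0 of 3 WT kidneys of the Pkd1 model at P7, where sex and genotype therefore cannot be told apart, and in 3 of 3 KO and 2 of 3 WT kidneys of the Pkd2 model at P7. At P1 they were in 0 of 3 KO and 2 of 3 WT kidneys for Pkd1, and 0 of 3 and 1 of 3 for Pkd2. At P3 they were in 3 of 3 KO and 3 of 3 WT kidneys for Pkd1, and 0 of 3 and 1 of 3 for Pkd2. Long transcripts also shifted against short ones. The median log2 deviation of transcripts over 8 kb minus that of transcripts under 1 kb was -0.70 to -0.58 in the Pkd1 KO kidneys at P7, -0.55 to 0.36 in the WT kidneys of that day, and -0.19 to 0.14 over all libraries of the Pkd2 model. A fit with this length trend removed called the same number of members at P7, 6 for Pkd1 (16.2% of all rows) and 3 for Pkd2 (15.2% of all rows). Genes with several transcript rows were mostly near 0 counts in the table (73.7% of 4726 such genes had under 10 mean counts in their highest row, against 35.0% of 15732 genes with 1 row), so a low value of such a gene is no sign of a low level. This touches Egfr alone among the members. Counts of the deleted genes cover exons in and outside the floxed part and so test the deletion in part. The KO against WT difference at P7 was 0.10 for Pkd1 in the Pkd1 model (adjusted p = 0.595) and -0.29 for Pkd2 in the Pkd2 model (adjusted p = 0.0122) on the log2 scale.

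Erbb2 had the highest level per transcript length of the 10 members in WT kidneys at P7. Its level there was 47.2 ± 2.60 CPM per kb in the Pkd1 model and 47.4 ± 2.8 CPM per kb in the Pkd2 model (SD, n = 3). Hbegf, Erbb3, Btc and Egf followed with means of 9.97 to 20.9 CPM per kb, then Tgfa (3.87 and 3.93 CPM per kb) and Egfr (2.51 and 2.81 CPM per kb). Erbb4 was at 0.414 and 0.365 CPM per kb, and Areg and Ereg at or below 0.150 CPM per kb. Among neighbours in this order, Erbb3 and Btc, Btc and Egf, and Tgfa and Egfr overlapped in range in both models. Hbegf and Erbb3, Erbb4 and Areg, and Areg and Ereg overlapped in the Pkd1 model. Erbb2 overlaps another protein-coding gene, Mien1, and the reads of such a pair may not be fully separated. The level of Egfr holds the reads given to 1 of its 2 rows.

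**Figure D1:**
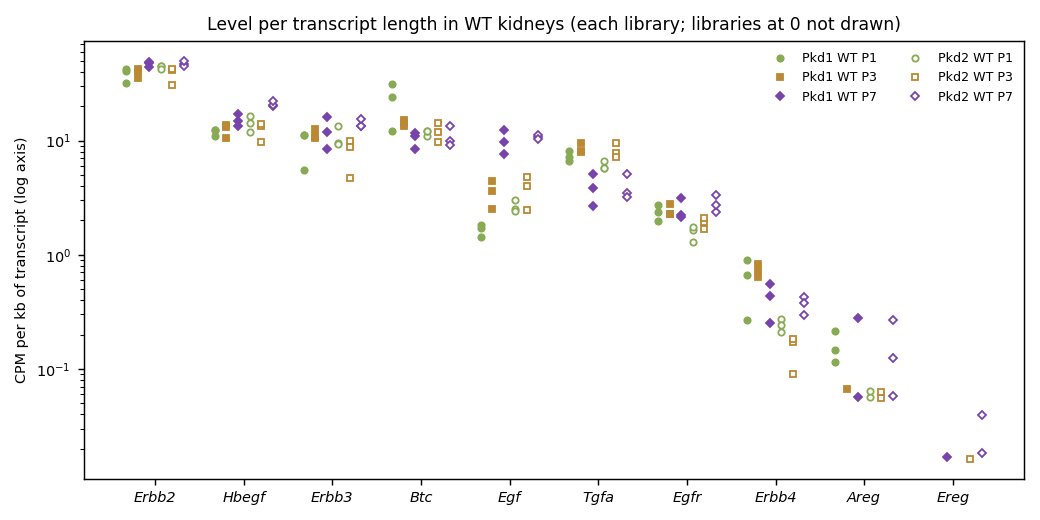
Each point is 1 WT library, with the gene on the x axis and its level in CPM per kb of transcript on a log axis, by model and day. Erbb2 sits highest, near 47 CPM per kb at P7 in both models, and Egf climbs from P1 to P7.

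Among the tested members, Egf had the largest change from P1 to P7 in WT kidneys of both models. In WT kidneys of the Pkd1 model its level was 8.23, 6.84 and 8.73 CPM at P1, 12.1, 17.1 and 21.3 CPM at P3, and 46.8, 59.1 and 36.7 CPM at P7. In WT kidneys of the Pkd2 model it was 14.4, 12 and 11.6 CPM at P1 and 50.8, 52.9 and 49.4 CPM at P7. The P1 and P7 libraries did not overlap in either model, and the P7 against P1 difference was 2.57 in the Pkd1 model (adjusted p = 0.00029) and 2.01 in the Pkd2 model (adjusted p = 0.00104) on the log2 scale. Tgfa, a ligand of EGFR, fell from P1 to P7 in WT kidneys by 0.92 (adjusted p = 0.0142) and 0.63 (adjusted p = 0.0449) on the log2 scale. With a covariate for Y-linked counts, which were in 2 of 3 WT kidneys at P1 and 0 of 3 at P7 of the Pkd1 model, the call of Tgfa in that model was lost (-0.79, adjusted p = 0.081). Egfr (0.85, adjusted p = 0.00954) and Hbegf (0.56, adjusted p = 0.0357) rose in the Pkd2 model, and Btc fell by 1.12 on the log2 scale in the Pkd1 model (adjusted p = 0.0204).

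In all, 3 of 8 members were called between P7 and P1 in WT kidneys of the Pkd1 model, where 17.9% of all rows were called, and 4 of 9 in the Pkd2 model, where 19.2% were called. Between P3 and P1, 0 members were called by edgeR in either model, against 0.120% and 0.0317% of all rows. At an unadjusted p under 0.05 there were 2 members in each model, with 1506 of all 12527 rows for Pkd1 and 1890 of 12633 for Pkd2, and DESeq2 called 1 (Egf) for Pkd1, with 1.56% of all rows, and 0 for Pkd2, with 2.62%. Calls for Egf, for Tgfa in the Pkd1 model and for Egfr in the Pkd2 model were found in 6 of 6 fits that left out 1 library. In the Pkd2 model Tgfa stayed called without P7 WT replicate 3 alone, with -0.66 to -0.50 (adjusted p = 0.069 to 0.150) without each of the other libraries, and Hbegf without P1 WT replicate 1 alone, with 0.45 to 0.59 (adjusted p = 0.0803 to 0.128) without each of the others. Btc in the Pkd1 model was not called without P1 WT replicate 1 (-0.80, adjusted p = 0.0724), P1 WT replicate 2 (-1.07, adjusted p = 0.0593) or P7 WT replicate 3 (-1.0, adjusted p = 0.0568).

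At P7, Egf was lower and Btc and Egfr were higher in KO than in WT kidneys of both models. In the Pkd1 model 6 of 8 members were called, 3 higher (Btc, Hbegf and Egfr) and 3 lower (Egf, Erbb3 and Erbb4), against 13.7% of all rows. In the Pkd2 model 3 of 9 were called, 2 higher (Btc and Egfr) and 1 lower (Egf), against 13.9% of all rows. The median log2 fold change over the members was -0.14 in the Pkd1 model, with -0.01 over all rows, and 0.01 in the Pkd2 model, with 0.00 over all rows. KO and WT libraries did not overlap for 6 of the 8 members (38.7% of all rows) and 4 of the 9 (35.1% of all rows).

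**Figure D2:**
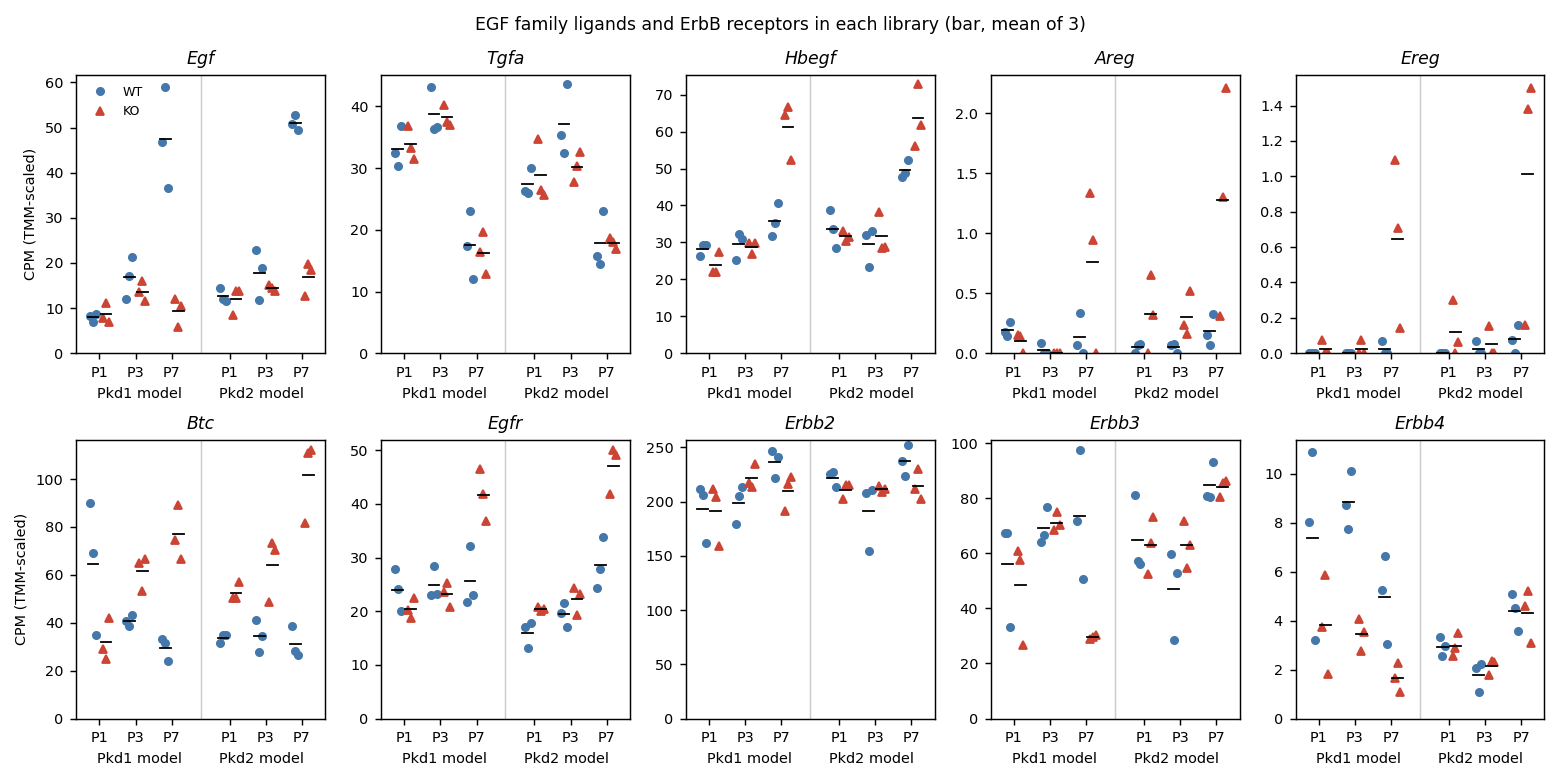
Each point is the TMM-scaled CPM of 1 library (circles WT, triangles KO, bars the mean of 3), for each member by model and day, on linear axes that start at 0. At P7 the KO kidneys sit below the WT kidneys for Egf (5.88 to 19.7 against 36.7 to 59.1 CPM) and above them for Btc (66.7 to 112 against 24.1 to 38.7 CPM) in both models.

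The first bases upstream of the annotated starts are shown for Egf, Btc and Egfr, the members called at P7 in both models, and for a stretch of the Areg promoter that holds the only CRE match among the 5 members read. They come from RefSeq on GRCm38.p6, the assembly of mm10, read 5′ to 3′ on the strand of the gene, with matches to the searched motifs in capitals.
Egf, chr3:129755323-129755352, minus strand: agctttaaaaaggagagcagagtctctctg
Btc, chr5:91402995-91403024, minus strand: gggcagctgggtgggagcagcgtgcaggct
Egfr, chr11:16752173-16752202, plus strand: cttctttagtccctcctcctcCCGCCCagc
Areg, chr5:91139527-91139556, plus strand: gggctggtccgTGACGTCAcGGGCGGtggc

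The 250 bases before the start of the counted row were read for 5 members, Erbb2 beside the 4 above. Tgfa, Hbegf, Ereg, Erbb3 and Erbb4 are named without sequence. Motifs were searched on both strands, and the share of all 32851 RefSeq promoters of the same length that hold each was 6.7% for AP-1 (TGANTCA), 1.5% for CRE (TGACGTCA), 0.5% for EGR1 (GCGTGGGCG), 12.6% for TEAD (GGAATG), 12.4% for a TATA box (TATAAA) and 32.7% for SP1 (GGGCGG). Areg held the CRE 61 bases, SP1 52 bases and a TATA box 31 bases before the start. Egfr held SP1 9 bases before it and Erbb2 held TEAD 88 bases before it. No searched motif was found in the windows of Egf and Btc. The first 30 transcribed bases after the start were found in a GENCODE transcript for Areg, Btc, Egfr and Erbb2 and not for Egf. The EGR1 motif was searched after the rise of Egr1 had been seen. A match is a description of the letters and not a measured site.

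Egf (chr3:129677574-129755322) was lower in KO kidneys at P7 in both models. In the Pkd1 model its level was 46.8, 59.1 and 36.7 CPM in WT and 12.1, 5.88 and 10.4 CPM in KO kidneys. Pkd2 WT kidneys had 50.8, 52.9 and 49.4 CPM and Pkd2 KO kidneys 12.7, 19.7 and 18.5 CPM. KO and WT libraries did not overlap in either model, and the KO kidneys at P7 (5.88 to 19.7 CPM) lay close to the range of the WT kidneys at P1 and P3 (6.84 to 22.9 CPM). Egf fell by 2.33 ± 0.29 (SE) on the log2 scale in the Pkd1 model, to 0.199 of the WT level (adjusted p = 0.00618), and fell by 1.59 ± 0.15 in the Pkd2 model, to 0.333 of the WT level (adjusted p = 0.00106). The call held in each of 6 fits with 1 library left out, in both models. At P1 and P3 the differences were 0.12 and -0.30 for Pkd1 and -0.07 and -0.30 for Pkd2, and none was called.

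The markers of the segments that make EGF could be read in part. Over the 5 of 7 listed genes of the thick ascending limb and distal convoluted tubule that were tested, 1 was called lower in each model: Slc12a1, the sodium, potassium and chloride cotransporter, in the Pkd1 model (-2.22, adjusted p = 0.0278), and the potassium channel gene Kcnj1 in the Pkd2 model (-1.34, adjusted p = 0.0438). Over all rows 13.7% and 13.9% were called in either direction, so 1 of 5 is near that share. The summed level of the list was 43.4 to 63.7 CPM in WT and 40.3 to 52.2 CPM in KO kidneys of the Pkd1 model at P7, and 65.5 to 94.3 against 51.7 to 70.6 CPM in the Pkd2 model. The groups overlapped in both. The median log2 fold change of the 5 genes was -2.22 in the Pkd1 model, 4 of them negative, and -1.13 in the Pkd2 model, 3 of them negative. KO and WT libraries of Slc12a1 and of Kcnj1 did not overlap in either model, as was so for 38.7% of all rows for Pkd1 and 35.1% for Pkd2. Cldn16 and Trpm6, which have higher levels and weigh more in the sum, had log2 differences of -0.12 and 0.07 for Pkd1 and 0.12 and 0.01 for Pkd2. Slc12a1 and Kcnj1 have 2 rows each, with 32.8 and 22.5 mean counts in the row used, so both rest on few counts. Pvalb has 1 row and 62.2 mean counts. With the length trend removed it was called lower in the Pkd1 model, beside Slc12a1, and not in the Pkd2 model. Umod and Slc12a3, which define these segments, also have 2 rows each and at most 0.0833 mean counts. The list is thus incomplete, and its part in the fall of Egf was not tested.

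Btc (betacellulin, a ligand of EGFR and ErbB4, chr5:91357261-91402994) was higher in KO kidneys at P7 in both models. Pkd1 WT kidneys had 33.4, 31.4 and 24.1 CPM and Pkd1 KO kidneys 74.7, 89.3 and 66.7 CPM. Pkd2 WT kidneys had 38.7, 28.3 and 26.5 CPM and Pkd2 KO kidneys 81.6, 111 and 112 CPM. Every KO library was above every WT library of its model. Btc rose by 1.37 ± 0.17 on the log2 scale in the Pkd1 model, which is 2.59-fold (adjusted p = 0.00615), and by 1.71 ± 0.17 in the Pkd2 model, which is 3.26-fold (adjusted p = 0.00133), and the calls held in each of 6 fits with 1 library left out.

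The KO libraries of Btc stood above the WT libraries before P7 as well. At P3 its level was 40.7, 38.7 and 43.4 CPM in WT and 64.8, 53.3 and 66.8 CPM in KO kidneys of the Pkd1 model, and 41.0, 27.9 and 34.5 against 48.5, 73.4 and 70.4 CPM in the Pkd2 model. At P1 it was 31.5, 35.0 and 34.9 against 50.5, 50.2 and 57.1 CPM in the Pkd2 model, again without overlap. None of these passed the test (log2 differences of 0.59, 0.90 and 0.64, adjusted p = 0.162, 0.931 and 0.476), while DESeq2 called all 3 (adjusted p = 0.000965, 0.0107 and 0.000165). At P1 in the Pkd1 model the order was turned, with 90.0, 69.3 and 34.7 CPM in WT and 29.1, 24.9 and 42.1 CPM in KO kidneys. Those groups overlapped and the difference of -1.01 was not called (adjusted p = 1.0).

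Hbegf, a heparin-binding ligand of EGFR and ErbB4 on chromosome 18, rose in the Pkd1 model at P7. Its level there was 31.7, 35.3 and 40.7 CPM in WT and 64.5, 66.7 and 52.3 CPM in KO kidneys, without overlap, and the rise was 0.77 ± 0.15 on the log2 scale (adjusted p = 0.0184). It was not called without KO replicate 1 (0.74, adjusted p = 0.0647), KO replicate 2 (0.71, adjusted p = 0.0842) or WT replicate 1 (0.69, adjusted p = 0.0859). Its level was 47.7, 48.8 and 52.4 CPM in Pkd2 WT and 56.1, 72.9 and 61.9 CPM in Pkd2 KO kidneys. These groups did not overlap either, yet the difference of 0.36 ± 0.11 was not called (adjusted p = 0.0590). Tgfa was not called at P7, with 12.1 to 23.1 CPM in WT and 12.8 to 19.7 CPM in KO kidneys of the Pkd1 model, 14.5 to 23.1 against 16.9 to 18.7 CPM in the Pkd2 model, and differences of -0.11 ± 0.27 (adjusted p = 0.807) and 0.01 ± 0.18 (adjusted p = 0.981) in the 2 models.

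Areg and Ereg (amphiregulin and epiregulin, ligands released at sites of injury and growth) lie beside Btc within 328.4 kb of chromosome 5 (91074617 to 91402994) and were close to the counting floor. Areg had 1, 5 and 0 counts in WT and 17, 12 and 0 counts in KO kidneys of the Pkd1 model at P7, and 2, 1 and 4 against 4, 17 and 28 counts in the Pkd2 model. Ereg had 1, 0 and 0 counts in WT and 14, 9 and 2 in KO kidneys of the Pkd1 model, and 1, 0 and 2 against 2, 18 and 19 counts in the Pkd2 model. The higher counts were in KO kidneys, with 1 KO library in each model near the WT counts. For Pkd2, counts of Areg reached 10 in P1 KO replicate 2 and in P7 KO replicates 2 and 3, and in no WT library. No fold change or p-value is given for either gene.

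**Figure D3:**
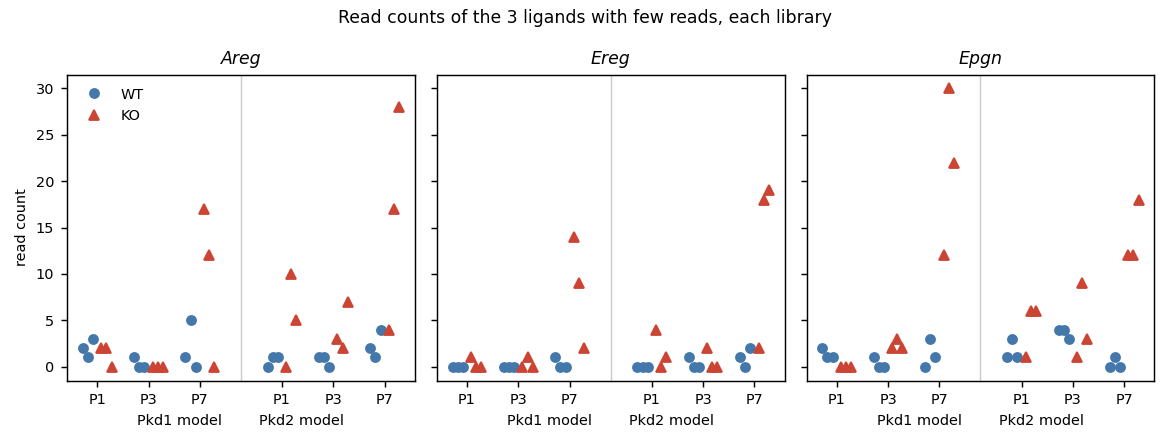
Read counts of Areg, Ereg and Epgn in each library, by model and day, on a linear axis (circles WT, triangles KO). At P7 Epgn has 12 to 30 counts in the KO and 0 to 3 in the WT kidneys, while Areg and Ereg have KO libraries at 0 and 2 counts beside others of up to 28.

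Egfr (the receptor of EGF, TGF-alpha and amphiregulin, chr11:16752203-16913907) rose at P7 in both models. Pkd1 WT kidneys had 21.7, 32.2 and 23.0 CPM and Pkd1 KO kidneys 46.5, 41.8 and 36.8 CPM. Pkd2 WT kidneys had 24.4, 27.8 and 33.8 CPM and Pkd2 KO kidneys 41.8, 50.1 and 49.2 CPM. The groups did not overlap in either model, and the rise was 0.70 ± 0.18 (adjusted p = 0.0419) and 0.71 ± 0.13 (adjusted p = 0.0130) on the log2 scale. The call in the Pkd1 model held in 1 of 6 fits that left out 1 library and was lost without KO replicate 1 (0.62, adjusted p = 0.120), KO replicate 2 (0.71, adjusted p = 0.124), KO replicate 3 (0.79, adjusted p = 0.0588), WT replicate 1 (0.60, adjusted p = 0.155) or WT replicate 3 (0.63, adjusted p = 0.0516). The call in the Pkd2 model was lost without KO replicate 2 (0.67, adjusted p = 0.0535). With library totals in place of TMM the call in the Pkd1 model was lost as well (0.66, adjusted p = 0.0516). Its transcript of 10208 bases is among the long ones, and with the length trend removed the rise in the Pkd1 model was 0.94 (adjusted p = 0.0112).

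Erbb2, the receptor without a known ligand, was at 222 to 247 CPM in WT and 191 to 223 CPM in KO kidneys of the Pkd1 model at P7. The difference was -0.17 ± 0.11 on the log2 scale (adjusted p = 0.292), and in the Pkd2 model, with 224 to 252 CPM in WT and 202 to 230 CPM in KO kidneys, it was -0.14 ± 0.07 (adjusted p = 0.208). KO and WT libraries overlapped in both models.

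Erbb3 and Erbb4 were called lower at P7 in the Pkd1 model. Erbb3, which binds neuregulins and signals through its partner, was at 71.6, 97.6 and 50.8 CPM in WT and 28.9, 29.5 and 30.2 CPM in KO kidneys of the Pkd1 model, and at 80.8, 80.5 and 93.0 against 80.3, 85.6 and 86.3 CPM in the Pkd2 model. Erbb4, a receptor of neuregulins and betacellulin, was at 5.26, 6.64 and 3.05 CPM in WT and 1.64, 2.27 and 1.07 CPM in KO kidneys of the Pkd1 model, and at 5.10, 4.52 and 3.56 against 4.62, 5.21 and 3.07 CPM in the Pkd2 model. KO and WT libraries stood apart in the Pkd1 model and were mixed in the other. Erbb3 fell by 1.31 ± 0.22 (adjusted p = 0.0121) and Erbb4 by 1.59 ± 0.42 (adjusted p = 0.0431) on the log2 scale in the Pkd1 model, and the differences in the Pkd2 model were -0.01 (adjusted p = 0.948) and -0.03 (adjusted p = 0.957).

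WT replicate 3 of the Pkd1 model at P7, with the lowest Erbb3 and Erbb4 of its group, was also the WT library of that day in which long transcripts stood lowest (-0.55). Transcripts of Erbb3 and Erbb4 measure 6016 and 12037 bases. With the length trend removed both were still called (-1.09, adjusted p = 0.0094, and -1.33, adjusted p = 0.047). Erbb3 was not called without KO replicate 2 (-1.30, adjusted p = 0.0577) or WT replicate 1 (-1.33, adjusted p = 0.0506). Erbb4 was called in 1 of 6 such fits and was lost without KO replicate 1 (-1.57, adjusted p = 0.109), KO replicate 2 (-1.87, adjusted p = 0.0919), KO replicate 3 (-1.34, adjusted p = 0.105), WT replicate 1 (-1.54, adjusted p = 0.138) or WT replicate 2 (-1.32, adjusted p = 0.108). At P3 Erbb4 was already at 4.07, 2.75 and 3.54 CPM in KO against 8.72, 7.76 and 10.1 CPM in WT kidneys of the Pkd1 model, without overlap and without a call by the quasi-likelihood test (-1.36, adjusted p = 0.162), while long transcripts stood at 0.04 to 0.26 in those KO and 0.39 to 0.55 in those WT libraries. DESeq2 (adjusted p = 0.000442) and the exact test (adjusted p = 0.000306) called it. With the length trend removed the difference was -1.11 and not called (adjusted p = 0.239).

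A fit over the 18 libraries of a model with a covariate for Y-linked counts (present or absent) takes its size from groups with both kinds of library. In the Pkd1 model this was the P1 WT group alone, with Y-linked counts in 2 of 3 libraries. The covariate there rests on 1 library without them, P1 WT replicate 2, which also had the lowest total (7179152 counts). At P7 genotype and Y-linked counts coincide in that model. The fit called 0 of the 8 members there, and 6 of all 12527 rows (0.0479%, against 13.7% without the covariate), so the count for the members says no more than that of all rows. Egf was then at -2.64 (adjusted p = 0.0852), Btc at 1.53 (adjusted p = 0.191), Hbegf at 0.84 (adjusted p = 0.182), Egfr at 0.71 (adjusted p = 0.323), Erbb3 at -0.89 (adjusted p = 0.455) and Erbb4 at -0.64 (adjusted p = 0.743). In the Pkd2 model, where both kinds of WT library exist at P7, Btc (1.62, adjusted p = 7.29e-05), Egf (-1.65, adjusted p = 0.000491) and Egfr (0.81, adjusted p = 0.00162) were called in that fit, as were 12.2% of all rows. The WT libraries with Y-linked counts had 50.8 and 52.9 CPM of Egf, and the one without had 49.4 CPM. For Egfr they had 24.4 and 27.8 CPM against 33.8 CPM, for Btc 38.7 and 28.3 against 26.5 CPM, for Tgfa 14.5 to 15.8 against 23.1 CPM and for Erbb3 80.8 and 80.5 against 93.0 CPM. For Hbegf they had 47.7 to 48.8 against 52.4 CPM, for Erbb2 224 to 237 against 252 CPM and for Erbb4 4.52 to 5.1 against 3.56 CPM. The library without Y-linked counts thus stood highest of the 3 for Egfr, Tgfa, Hbegf, Erbb2 and Erbb3 and lowest for Egf, Btc and Erbb4. With 1 such library, sex and other traits of that library cannot be told apart.

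**Figure D4:**
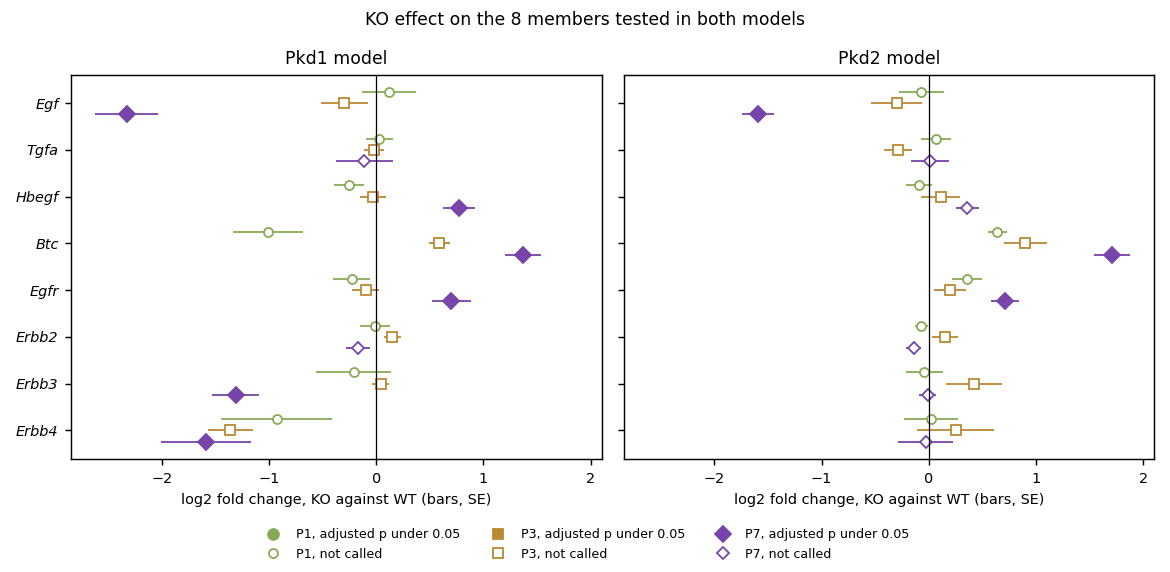
Log2 fold changes of KO against WT (points) with their standard errors (bars) for the 8 members tested in both models, by day, on a shared x axis. Filled points passed the test, all of them at P7, among them Egf at -2.33 and -1.59 and Btc at 1.37 and 1.71.

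At P1 and P3, 0 members were called by edgeR in either model. The share of all rows called was 0% at P1 and 0.00798% at P3 in the Pkd1 model, and 0% on both days in the Pkd2 model. At an unadjusted p under 0.05 there were 1 and 2 members in the Pkd1 model (Btc at P1, Btc and Erbb4 at P3), with 1.29% and 14.1% of all rows. For Pkd2 there were Btc and Egfr at P1 (5.60% of all rows) and, beside Areg, Btc at P3 (4.46% of all rows). DESeq2 called 0 and 2 members in the Pkd1 model at P1 and P3, with 0.0160% and 1.98% of all rows, and 1 on each day in the Pkd2 model, with 0.261% and 0.301%. The exact test called 0 and 2 in the former, with 0.0239% and 1.45% of all rows, and 1 and 0 in the latter, with 0.237% and 0.142%. The 2 members of the Pkd1 model at P3 were Btc and Erbb4 by both tests. KO and WT libraries did not overlap for 0 of 8 members at P1 (5.73% of all rows) and 3 of 8 at P3 (21.0% of all rows) in the Pkd1 model, and for 2 of 9 at P1 (11.3% of all rows) and 2 of 9 at P3 (9.91% of all rows), Areg among them, in the Pkd2 model.

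On these 2 days KO and WT libraries of Hbegf and Tgfa overlapped in both models. Hbegf ran from 22.1 to 29.4 CPM at P1 and from 25.2 to 32.4 CPM at P3 over both genotypes of the Pkd1 model. Tgfa was higher at P3 than at P7, with 36.3 to 43.2 CPM in WT and 37.0 to 40.2 CPM in KO kidneys of the Pkd1 model at P3, and 32.5 to 43.6 against 27.8 to 32.6 CPM in the Pkd2 model. The last pair overlapped at the edge, and the difference of -0.29 was not called (adjusted p = 0.931). Erbb2 was at 179 to 213 CPM in WT and 213 to 235 CPM in KO kidneys of the Pkd1 model at P3. Before rounding these groups did not overlap, and the difference of 0.15 was not called (adjusted p = 0.42).

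Egfr was at 13.1 to 17.8 CPM in WT and 20.4 ± 0.377 CPM (SD, n = 3) in KO kidneys of the Pkd2 model at P1. These groups did not overlap, and the difference of 0.36 ± 0.14 was not called (adjusted p = 0.864). Erbb3 varied widely within groups at P1, from 33.1 to 67.5 CPM in WT and 26.6 to 60.7 CPM in KO kidneys of the Pkd1 model, and at P3 in the Pkd2 model from 28.6 to 59.7 CPM in WT and 54.7 to 71.8 CPM in KO kidneys. The lowest values of the Pkd1 model at P1 were those of replicate 3 in both genotypes. Erbb4 was at 3.23 to 10.9 CPM in WT and 1.83 to 5.87 CPM in KO kidneys of the Pkd1 model at P1, with overlap, and at 1.08 to 3.48 CPM over all P1 and P3 libraries of the Pkd2 model. Areg had 2 counts in all over the WT and 15 over the KO kidneys of the Pkd2 model at P1, and 2 against 12 counts at P3.

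The change of the KO effect between P1 and P7 was tested as an interaction. In the Pkd1 model 4 of 8 members were called, against 7.75% of all rows: Btc (2.39, adjusted p = 0.0021), Hbegf (1.02, adjusted p = 0.00621) and Egfr (0.93, adjusted p = 0.0256) with a more positive and Egf (-2.44, adjusted p = 0.00279) with a more negative difference at P7. In the Pkd2 model 1 of 9 was called, Egf (-1.52, adjusted p = 0.0232), against 1.30% of all rows, and Btc was at 1.07 (adjusted p = 0.0513). Between P1 and P7, KO kidneys with Y-linked counts went from 0 of 3 to 3 of 3 in both models. WT kidneys with them went from 2 of 3 to 0 of 3 for Pkd1 and from 1 of 3 to 2 of 3 for Pkd2. A change of the KO effect thus runs together with a change in the mix of the sexes. With the covariate for Y-linked counts, 0% of all rows were called for Pkd1 and 0.902% for Pkd2. The KO difference of Btc at P1 in the Pkd1 model, which enters this test, was -1.01, with WT libraries from 34.7 to 90.0 CPM.

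The interaction calls of Btc, Hbegf and Egf in the Pkd1 model were found in 12 of 12 fits that left out 1 library. Egfr in the Pkd1 model was called in 6 of 12 and lost without P1 KO replicate 1 or 2, P1 WT replicate 1, P7 KO replicate 1 or 2, or P7 WT replicate 1 (0.81 to 0.93, adjusted p = 0.055 to 0.078). Egf in the Pkd2 model was called in 5 of 12 and lost without P1 KO replicate 2 or 3, P1 WT replicate 2 or 3, P7 KO replicate 1, or P7 WT replicate 1 or 2 (-1.52 to -1.34, adjusted p = 0.0521 to 0.0742).

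The KO effect at P7 was also compared between the models, and 0 of 8 members were called by edgeR, with 0% of all rows. Erbb3 (-1.28, adjusted p = 0.105), Erbb4 (-1.54, adjusted p = 0.174) and Hbegf (0.43, adjusted p = 0.263) had an unadjusted p under 0.05, as did 17.3% of all rows, and DESeq2 called Erbb3 (adjusted p = 0.000589) with 3.29% of all rows. Erbb3 and Erbb4 were called for Pkd1 and not for Pkd2, but edgeR did not show the difference between the models. Without P7 WT replicate 3 of the Pkd1 model, 2 of 8 members were called in this test, as were 1449 of 12343 rows (11.7%).

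Among the other ligands of the family, Epgn (epigen) had 0, 3 and 1 counts in WT and 12, 30 and 22 counts in KO kidneys of the Pkd1 model at P7, and 0, 1 and 0 against 12, 12 and 18 counts in the Pkd2 model. Its counts reached 10 in these KO libraries alone, so it passed the filter where it had to differ, and no test of it is given. Of the 4 other listed genes 3 were tested, and 0 were called in the Pkd1 and 1 in the Pkd2 model. Over all rows 13.7% and 13.9% were called. Nrg1, a neuregulin that binds ErbB3 and ErbB4, was at 2.21, 2.12 and 1.70 CPM in WT and 4.94, 7.20 and 6.07 CPM in KO kidneys of the Pkd2 model (1.59, adjusted p = 0.00585), and the difference in the Pkd1 model was 0.83 (adjusted p = 0.112).

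Genes that release, relay or restrain the signal were also listed. Of the shedding list 3 of 6 genes were tested, and Adam12, a membrane protease, fell by 0.90 on the log2 scale in the Pkd1 model (adjusted p = 0.0115) while 0 were called in the Pkd2 model. Of the inhibitors 15 of 16 were tested: in the Pkd1 model the ERK phosphatase gene Dusp6 rose (0.58, adjusted p = 0.0234) and Cbl, a ubiquitin ligase that removes EGFR, fell (-1.90, adjusted p = 0.0393), and in the Pkd2 model Errfi1, a direct inhibitor of EGFR, rose (0.42, adjusted p = 0.00698) and Socs5 fell (-0.36, adjusted p = 0.046). Of the signal relay 18 of 23 were tested, with 0 higher and 2 lower in the Pkd1 model (the PI3 kinase subunits Pik3r1, -2.35, adjusted p = 0.0496, and Pik3r3, -0.61, adjusted p = 0.0356) and 0 called in the Pkd2 model. Over all rows 13.7% and 13.9% were called, and the inhibitors, with 2 of 15 in each model, and the relay of the Pkd1 model, with 2 of 18, were near that share. With the length trend removed, 3 inhibitors were called higher (Errfi1, Spred1 and Dusp6) and 1 lower (Cbl) in the Pkd1 model, and Pik3r1 was no longer called.

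Of 10 genes induced by ERK signalling, 9 were tested at P7, and 5 rose in Pkd1 KO and 3 in Pkd2 KO kidneys, with 0 called lower. Over all rows 13.7% and 13.9% were called in either direction. The immediate early gene Fos was at 5.13, 6.44 and 5.38 CPM in WT and 58.2, 64.2 and 20.7 CPM in KO kidneys of the Pkd1 model, and at 8.98, 8.97 and 8.74 against 34.0, 62.7 and 47.8 CPM in the Pkd2 model. Fos rose by 3.07 (adjusted p = 0.00697) and 2.44 (adjusted p = 0.00068) and Egr1, another immediate early gene, by 2.41 (adjusted p = 0.00218) and 1.97 (adjusted p = 0.0026) on the log2 scale. Jun (0.90, adjusted p = 0.0243) and Etv4 (0.96, adjusted p = 0.0468) rose in the Pkd1 model, and Ier3 rose in both (0.55, adjusted p = 0.0471, and 0.51, adjusted p = 0.0116). With the length trend removed, Ier3 was no longer called in the Pkd1 model. That fit called 4 of the 9 higher for Pkd1 (16.2% of all rows) and 3 for Pkd2 (15.2% of all rows). The median log2 fold change of the list was 0.55 and 0.31, with -0.01 and 0.00 over all rows. Fos also reached 43.1 CPM in 1 WT kidney of the Pkd1 model at P1. Many signals other than ErbB receptors induce these genes, and the source of the rise was not tested.

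Cell type markers moved with genotype at P7 as well. Over the tested genes of the collecting duct, 3 of 4 were lower in each model (summed levels of 933 to 1078.9 CPM in WT and 364 to 504 CPM in KO kidneys of the Pkd1 model, and 862 to 1241.9 against 482 to 565 CPM in the Pkd2 model), and all 5 of 5 proximal tubule genes were lower in each (3451.7 to 4532.1 against 1325.1 to 2273.2 CPM, and 3606.7 to 4739.4 against 2583.9 to 2875.4 CPM). Macrophage genes were higher for 1 of 5 genes in Pkd1 KO and 3 of 5 in Pkd2 KO kidneys (176 to 270 against 273 to 338 CPM, and 188 to 227 against 293 to 397 CPM). Of 2 fibroblast genes 0 and 1 were called higher, of 2 podocyte genes 0 and 0 were called, and the 1 endothelial gene was called lower in the Pkd2 model. Their part in the levels of the members was not tested.

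Across the 36 libraries the members did not follow one common pattern. On log2(CPM + 0.5), Pearson's r was 0.77 for Hbegf and Egfr, 0.58 for Btc and Egfr, 0.62 for Erbb2 and Erbb3, 0.60 for Erbb3 and Erbb4 and -0.76 for Tgfa and Hbegf, and these values share day, genotype and library. The row most like a member was Mettl7a1 for Egf (0.93), Lrp4 for Tgfa (0.93), F3 for Hbegf (0.92), Ahnak for Egfr (0.93), Cdc42bpg for Erbb2 (0.83), Wwc2 for Erbb3 (0.93) and Utrn for Erbb4 (0.88).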

How the data were processed

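Total RNA of 36 kidneys was sequenced with standard Illumina protocols. The strand setting of the kit is not given in the sources used here. The authors processed the reads with CASAVA 1.8.2, mapped them to mm10 with TopHat2 2.1.0 and counted them with HTSeq (default options, RefSeq), and the deposited table holds raw read counts per RefSeq transcript, without the filter and TMM scaling of the methods. Groups came from the labels. Symbols were paired for 28978 of 29996 rows through RefSeq on GRCm38.p6.

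A row was kept where 3 or more of a model's 18 libraries had 10 or more counts (12527 rows for Pkd1, 12633 for Pkd2, 12343 in both) and tested with edgeR 4.0.16 in R 4.3.3: TMM factors, the quasi-likelihood test (two-sided) of 3 KO and 3 WT libraries, and Benjamini-Hochberg adjustment over all rows at 0.05, with no minimum fold. The SE is the size of the log2 fold change over the square root of F. Changes between days in WT kidneys used the 9 WT libraries, and interactions used the 18 libraries of a model or the 12 of P7. Alternatives were DESeq2 1.42.0, the exact test, RLE factors, library totals, other filters, 1 fit per model, a replicate block, a Y-linked covariate and leaving out each library, and, chosen after seeing the data, removal of the length trend. Replicate numbers come from the labels. Same-numbered KO and WT libraries deviated together in every pair of the Pkd1 model at P1 alone (r = 0.39, 0.26 and 0.58), where the block called 0 members as well. Chi-square per row between replicates was 5.15 to 63.98 over 36 pairs, so no replicate pair agreed within sampling noise, and the spread between libraries, beyond counting error, set the precision.

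The genes named are the 10 members, each by its row with the highest mean count, up to 4 called genes of each pathway list, the rows most like a member, the marker lists, the deleted genes and the Y-linked genes. Some results are not reported here. The members and lists were chosen with earlier results of these data known. The steps were tested on simulated data (12341 rows, the Pkd1 model at P7), where 69% of 100 rows changed 2-fold and 94% of 100 rows changed 4-fold were recovered with 9 false calls. The changed rows were drawn above a minimum expected count, so these shares do not cover rows with few counts. The simulated libraries held neither the length trend nor a sex difference. Figures were drawn with matplotlib 3.10.9.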

Additional observations from a re-analysis of the deposited data

Results flagged for a closer look

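The KO effect at P7 differed from that at P1 by the interaction test of edgeR for 5 results. In the Pkd1 model the difference on the log2 scale was -2.44 for Egf, 1.02 for Hbegf, 2.39 for Btc and 0.93 for Egfr, and in the Pkd2 model it was -1.52 for Egf. The mix of libraries with and without Y-linked counts also changed between these days in both models. With a covariate for Y-linked counts, 0 of the 4 in the Pkd1 model were called (Egf -2.97, adjusted p = 0.697, and Btc 2.64, adjusted p = 0.681), while Egf in the Pkd2 model was (-1.64). That fit called 0 of all 12527 rows in the Pkd1 model, against 971 without the covariate, and 114 of 12633 in the Pkd2 model, against 164, so the loss of the 4 calls is not particular to the members. Groups of 3 libraries were not searched for single deviating samples.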

How the results depend on the processing

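Over all alternatives, 693 of the values for single members kept their direction and their side of the threshold, 24 passed it newly, 60 no longer passed and 18 changed sign, and the cause was not tested except where fewer libraries entered by construction. Values of Areg at P7 in the Pkd2 model are among the 693 and the 24. Areg passed the filter through KO libraries alone, so its new passes are no sign of a change. With 3 libraries a group, 69% of the simulated 2-fold changes were recovered, so changes of that size can be missed. Smaller changes were not simulated. For the Pkd1 model, 2 members were called at P3 by DESeq2 and by the exact test, and at P7 0 with the Y-linked covariate, 3 with the replicate block (Btc, Egf and Erbb3) and 2 to 5 when 1 library was left out. All rows called at P7 moved as well, from 1721 to 6 with the covariate, 712 with the block and 224 to 3206 without 1 library. For the Pkd2 model, DESeq2 and the exact test called 1 at P1, and DESeq2 called 1 at P3 and 5 at P7. Leaving out 1 library gave 2 to 5 at P7. Areg, which passed the filter through KO libraries alone, is among the 5 in both cases. Of all 12633 rows DESeq2 called 2254 at P7, and the fits without 1 library called 650 to 2052, against 1753 by edgeR with all libraries. For the change of the KO effect from P1 to P7, 0 were called in the Pkd1 model with the Y-linked covariate, as were 0 of all 12527 rows. In the Pkd2 model 2 were called with 10 counts in every library and by DESeq2, 0 with the replicate block, and 0 to 2 without 1 library. All rows called there moved as well, from 164 of 12633 to 220 of 10492 with 10 counts in every library. DESeq2 called 491 rows, the block 78 and the fits without 1 library 89 to 338. Leaving out 1 library gave 2 to 3 members for P7 against P1 in Pkd2 WT kidneys, and 0 to 2 for the difference between the models, where DESeq2 called 1. Of all rows, the fits without 1 library called 1085 to 2495 in the former, against 2427 with all libraries. In the latter they called 0 to 1449, against 0 with all libraries by edgeR and 406 by DESeq2. With the replicate block in the Pkd2 model at P7, 4 were called, Areg again among them, as were 1485 of all 12633 rows. Same-numbered KO and WT libraries deviated together in every pair at P1 of the Pkd1 model alone, which does not show that they were paired. Elsewhere the samples share a number. The sign changes were all of uncalled values: Egf at P1 without 1 library (-0.12 within -0.12 to 0.25 for Pkd1, 0.03 and 0.12 within -0.18 to 0.12 for Pkd2), Tgfa at P7 for Pkd1 (0.04 with the length trend removed, 0.05 and 0.14 without 1 library, within -0.31 to 0.14) and for Pkd2 (-0.02 with library totals, 0.00 by DESeq2, -0.01, -0.07 and -0.12 without 1 library, within -0.12 to 0.24), Erbb3 in the Pkd2 model at P7 (0.01 with the length trend removed, 0.03 and 0.06 without 1 library, within -0.05 to 0.06), Erbb4 there (0.09 and 0.17, within -0.19 to 0.17) and Btc from P1 to P3 in Pkd2 WT kidneys (-0.02 and -0.12, within -0.12 to 0.16). With library totals as the scale, the median log2 difference over all rows was between -0.05 and 0.03 in every comparison.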
